A study of Homo sapiens with 208 samples.

Results

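The response of PC9M2 cells to epidermal growth factor (EGF) in the presence of gefitinib was examined over 24 h. PC9M2 is a gefitinib-resistant human lung adenocarcinoma cell line, labelled PC9GRM2, and was selected from the gefitinib-sensitive line PC9 by prolonged culture in a low dose of the drug. PC9 carries an activating deletion in the EGFR kinase domain, and PC9M2 was described as free of the usual secondary EGFR mutation and of extra copies of MET. The comparison was defined by the labels alone, as the arrays of PC9M2 cells given EGF and gefitinib against those given gefitinib, matched by time from 0.5 to 24 h. It holds 25 arrays a side, 50 of the 208 arrays of the series. A further array a side at 0 h, 1 for each course, served as a baseline for the EGF difference, not for gefitinib. All cells were first starved of serum for 48 h. EGF was given at 100 ng/ml and gefitinib at 0.5 µM, and both courses compared here contained gefitinib. PC9M2 cells with EGF alone, PC9M2 cells with no treatment, and the same 4 treatments of PC9 were used only where stated. PC9M2 is a single resistant derivative of 1 parental line, and each time course was run once, with 1 array a time point. The time points therefore stood in for replicates, and the p-values measure the spread between time points of 1 course.

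EGF binds the EGF receptor (EGFR), a receptor tyrosine kinase that signals through RAS, RAF, MEK and ERK and through PI3K and AKT. ERK phosphorylates transcription factors at the promoters of immediate-early genes, and the products that follow include phosphatases and Sprouty proteins that damp the pathway and further EGFR ligands that feed it. Gefitinib occupies the ATP site of the EGFR kinase, and the question this comparison addresses is what an excess of ligand still does to transcription when the kinase is occupied in resistant cells.

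Each value is a log2 intensity, and each difference is log2 of EGF and gefitinib minus log2 of gefitinib alone on the array of the same time point. Arrays of a course were alike. The median Pearson correlation of an array with the others of its course was 0.963 to 0.983 for EGF and gefitinib. For gefitinib it was 0.953 to 0.982. The epithelial markers EPCAM, CDH1, KRT7, KRT8, KRT18 and KRT19 were well above background on all 25 arrays of both courses. Of the lung adenocarcinoma markers, NAPSA and SFTPC were well above background on all 25 arrays of both courses, SFTPB on 10 and 12, and NKX2-1, a defining factor of this tumour type, on 1 and 2. The fibroblast genes COL3A1 and LUM and the leukocyte gene PTPRC were above background on none. CD68, a macrophage marker, and PECAM1, an endothelial marker, were well above background on every array of both courses, with limma adjusted p of 0.744 or more for the difference between the courses.

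The 2 arrays of PC9M2 cells given EGF at 0.5 h went against their labels. DUSP6, which encodes an ERK phosphatase and is transcribed when ERK is active, was at 12.54 on the array labelled EGF and gefitinib and at 7.75 on the array labelled EGF, against 7.86 with gefitinib and 13.06 with no treatment. EGR1, an immediate-early zinc-finger transcription factor, was at 13.64, 7.91, 7.56 and 11.45 on the same 4 arrays, and at 1 h it was at 7.21, 12.85, 7.49 and 10.96. The ERK feedback gene SPRY4 was at 10.29, 5.28, 4.98 and 9.75 on those arrays at 0.5 h. At 0.5 h the array labelled EGF and gefitinib thus had levels near those of EGF alone at 1 h, and the array labelled EGF had levels near those of gefitinib. In PC9 at 0.5 h EGR1 was at 10.08 with no treatment, 12.22 with EGF, 8.00 with EGF and gefitinib and 7.65 with gefitinib. The arrays were not reassigned. Results are given as labelled, over 25 time points, and without 0.5 h, over 24 time points, an alternative chosen after seeing the data. All levels and gene differences below are over the 24 time points unless the 25 are named.

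**Figure D1:**
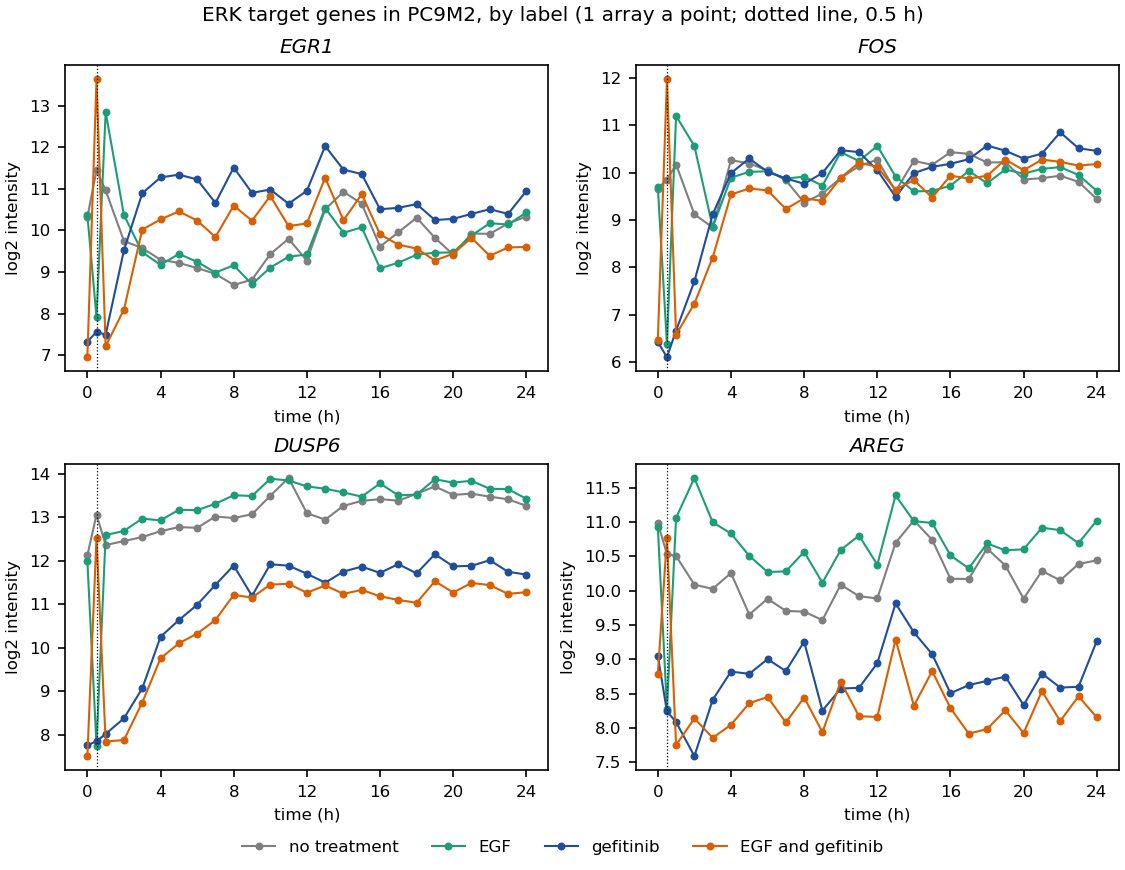
Log2 intensity (vertical axis) of EGR1, FOS, DUSP6 and AREG against time in h (horizontal axis) in PC9M2, with 1 point an array and 1 line for each of the 4 treatments as labelled. At 0.5 h the array labelled EGF and gefitinib is high for all 4 genes and the array labelled EGF is low, and from 4 h the line for EGF and gefitinib runs mostly below that for gefitinib.

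Treatment was also tied to the place on the slide. A slide carried the arrays of 1 line and 1 time, always in the same order of treatment, with EGF and gefitinib at position 3 and gefitinib at position 4 on all 26 slides of each line, so that treatment and position cannot be told apart. In PC9, where the same contrast lay at the same positions, 8 of 13263 genes passed the test over 25 time points, which is 0.0603%, and 0 without 0.5 h. There limma gave 1333 genes at an unadjusted p under 0.05, and the paired t-test, adjusted by Benjamini-Hochberg, called 5. The SD over genes of this difference was 0.78, 1.13 and 0.71 in PC9 at 14, 16 and 17 h. In PC9M2 it was 0.51, 0.45 and 0.42 at those times, whereas from 0.5 to 5 h it was smaller in PC9. With such unlike spread the PC9 counts cannot decide whether position had an effect.

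In PC9M2 cells held in gefitinib, adding EGF was accompanied by small differences in the mean over the course. Without 0.5 h, EGR1, DUSP6, SPRY4 and AREG, which ERK normally switches on, were lower with EGF and gefitinib than with gefitinib alone. KRT6B, ADAM19 and SCG2 were also lower, and SOX2, DAPK2 and ASNS, asparagine synthetase, were higher. As labelled, EGR1, DUSP6, SPRY4 and AREG did not pass. The pair at 0.5 h was set aside because of levels there, among them those of EGR1, DUSP6, SPRY4, FOS and EGR3. The genes that gefitinib moved at least 2-fold in PC9 were part of the same check of labels. Results for all these genes without 0.5 h therefore follow in part from that choice. With variance inflated for correlation between neighbouring times, KRT6B and SCG2 no longer passed. As labelled, 407 of 13263 genes passed the test (3.07%), of which 155 were higher (1.17%) and 252 lower (1.9%) with EGF. Without 0.5 h, 834 genes passed (6.29%), 363 higher (2.74%) and 471 lower (3.55%), and these included all 407. The test was limma's moderated two-sided test of the mean difference over time points, with Benjamini-Hochberg adjustment at 0.05 over all tested genes, as everywhere below. The median size of the called differences was 0.17 on the log2 scale without 0.5 h, and the single gene past 2-fold, EGR3, was measured on a dim probe. When the 2 courses were compared as unpaired groups, 0 genes passed (184 at an unadjusted p under 0.05 as labelled), so every call rests on the matching of time points.

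At 0 h the same pair of treatments, each with 1 array and without a test, differed with an SD over genes of 0.36 on the log2 scale, which lies inside the range of 0.27 to 0.58 at later times. At that time 311 genes were more than 2-fold apart, against 98 to 789 later. Of the 834 called genes 65.8% had the same sign at 0 h as in the course, against 60.9% of all tested genes. EGR2 was lower with EGF and gefitinib by 0.72 already at 0 h, EGR1 by 0.37 and DUSP6 by 0.25, so that a part of these differences was present in the baseline arrays. KRT6B and FOS differed by 0.00 and 0.03 at 0 h. The part of the 0 h differences in the course means was not tested. Both 0 h arrays were already low for DUSP6, at 7.51 with EGF and gefitinib and 7.76 with gefitinib. The 0 h arrays with EGF alone and with no treatment were at 12.00 and 12.13. For SPRY4 the same 4 arrays were at 5.98, 6.09, 9.75 and 9.85. The 0 h arrays of the 2 gefitinib courses therefore cannot be read as cells before gefitinib.

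Of 30 immediate-early genes 28 were tested, and without 0.5 h 0 rose and 8 fell, where 3.55% of all genes fell. They were EGR1, EGR2, EGR3, EGR4, FOS, FOSL1, IER2 and NR4A1. As labelled none of the 28 passed. The median difference of the list was -0.07, against 0.01 for all genes, and the means of 18 of its members were below 0.

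EGR1, a known target of ERK and of the serum response factor, had log2 intensities of 7.21 to 11.27 with EGF and gefitinib, with a median of 9.96. With gefitinib they were 7.49 to 12.03, with a median of 10.78. EGR1 was lower with EGF at 24 of 24 time points, although the ranges overlapped, since both courses climbed from the low levels of the first hours. The mean difference was -0.84 ± 0.06 (SE, n = 24), or 1.78-fold lower, with an adjusted p of 3.17e-09 in limma. As labelled it was -0.56 with an adjusted p of 0.279 and 0.5 h was the single time point at which EGR1 was higher, by 6.09. The 250 bases before the EGR1 start are shown because they carry sites that link this gene to the serum response factor, which ERK signalling controls. They are the RefSeq sequence of build GRCh38.p14 at chr5:138465229-138465478 on the plus strand, with matches to the CArG box in capitals.

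EGR1: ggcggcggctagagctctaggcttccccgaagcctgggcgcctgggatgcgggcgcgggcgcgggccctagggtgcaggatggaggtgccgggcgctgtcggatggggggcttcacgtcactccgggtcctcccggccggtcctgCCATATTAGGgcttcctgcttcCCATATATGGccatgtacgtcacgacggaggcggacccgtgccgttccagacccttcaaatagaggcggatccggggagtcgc

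The 2 matches begin 105 and 83 bases before the start. The CArG box was searched on both strands by its usual consensus, and 407 of 35116 RefSeq promoter windows of this length held a match (1.16%). Promoters of 13 of 16 ERK-related genes, looked up after their values were seen, were searched in this way, and the rest were left out. Among those 13 EGR1 was the only one with a CArG box in this window. Sites further upstream were not searched.

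The other EGR genes, which encode related zinc-finger factors, moved the same way. EGR2 fell by 0.80 ± 0.07 (SE, n = 24), from a median of 6.67 with gefitinib to 5.87, and was lower at 24 of 24 time points. EGR3 had a mean difference of -1.01, but its probe was well above background on 10 of 25 arrays with EGF and gefitinib and on 17 with gefitinib, so the size of this difference is uncertain. EGR4 fell by 0.60 ± 0.09 and was lower at 22 of 24 time points. Adjusted p-values in limma ran from 1.83e-08 for EGR2 to 0.00018 for EGR4, and as labelled they were 0.138, 0.203 and 0.142 for EGR2, EGR3 and EGR4. With normexp background correction, which adds an offset of 50 to each intensity, the differences without 0.5 h were smaller, -0.68 for EGR1, -0.21 for EGR2, -0.19 for EGR4 and -0.18 for FOSL1, and still passed.

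FOS, a subunit of the AP-1 transcription factor, had levels of 6.58 to 10.28 with EGF and gefitinib (median 9.86) and of 6.66 to 10.85 with gefitinib (median 10.16). FOS was lower at 22 of 24 time points, with a mean difference of -0.37 ± 0.05 (SE, n = 24) and a limma adjusted p of 8e-05, and as labelled of -0.12 with an adjusted p of 0.83. FOSL1, another AP-1 subunit that follows sustained ERK activity, fell by 0.65 ± 0.14 and was lower at 23 of 24 time points. The orphan nuclear receptor gene NR4A1 fell by 0.23 and IER2 by 0.06, each with a limma adjusted p near the threshold, 0.0385 and 0.0399. MYC, a growth factor-responsive transcription factor, had a mean difference of -0.06 with an adjusted p of 0.806 and was well above background on 13 and 12 arrays.

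Some feedback inhibitors of the pathway fell as well. Without 0.5 h, 4 of 5 tested Sprouty and Spred genes fell and 0 rose, with a median of -0.21. Of 11 MAPK phosphatases 3 fell and 0 rose, with a median of -0.05, where 3.55% of all genes fell and 2.74% rose. As labelled none of either list passed. DUSP6, which dephosphorylates ERK in the cytoplasm, ranged from 7.85 to 11.53 with EGF and gefitinib (median 11.23) and from 8.02 to 12.15 with gefitinib (median 11.72). DUSP6 was lower with EGF at 24 of 24 time points, and the ranges overlapped, since both courses started low. Its mean difference was -0.49 ± 0.04 (SE, n = 24), or 1.41-fold lower, with a limma adjusted p of 1.83e-08, against -0.28 and 0.483 as labelled. DUSP5, the nuclear ERK phosphatase, fell by 0.23 and DUSP4 by 0.18, with limma adjusted p of 0.00302 and 0.0042.

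SPRY4, which blocks RAS activation by receptor tyrosine kinases, ranged from 4.68 to 9.25 with EGF and gefitinib (median 8.58) and from 4.96 to 9.58 with gefitinib (median 8.97). SPRY4 was lower at 21 of 24 time points, and the mean difference was -0.41 ± 0.07 (SE, n = 24) with a limma adjusted p of 0.000346, against -0.19 and 0.71 as labelled. Its relatives SPRY2, SPRED1 and SPRY1 fell by 0.21, 0.22 and 0.13, each lower at 19 of 24 time points. ETV5, an ETS factor that responds to ERK, fell by 0.22 and was called both as labelled (adjusted p 0.0361) and without 0.5 h (adjusted p 0.0186, limma). The other 7 of the 8 tested ETS factors did not pass. Of the 14 genes of the cascade itself, from GRB2 to MAPK3, SOS1, an exchange factor for RAS, was the single gene that passed without 0.5 h. It rose, as did 2.74% of all genes.

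Ligands of the ERBB receptors fell in part. Without 0.5 h, AREG and HBEGF fell among 7 tested ligands and none rose, where 3.55% of all genes fell and 2.74% rose. As labelled none passed. AREG, which encodes the EGFR ligand amphiregulin, ranged from 7.75 to 9.29 with EGF and gefitinib (median 8.17) and from 7.59 to 9.81 with gefitinib (median 8.72). AREG was lower at 22 of 24 time points, the exceptions being 2 h and 10 h, and its mean difference was -0.48 ± 0.07 (SE, n = 24) with a limma adjusted p of 0.00018, against -0.36 and 0.148 as labelled, and it was -0.28 with normexp. The sequence before the AREG start is shown because it holds a cyclic AMP response element (CRE), the site of the CREB and ATF factors, in capitals. It is the RefSeq sequence of GRCh38.p14 at chr4:74444886-74445135 on the plus strand.

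AREG: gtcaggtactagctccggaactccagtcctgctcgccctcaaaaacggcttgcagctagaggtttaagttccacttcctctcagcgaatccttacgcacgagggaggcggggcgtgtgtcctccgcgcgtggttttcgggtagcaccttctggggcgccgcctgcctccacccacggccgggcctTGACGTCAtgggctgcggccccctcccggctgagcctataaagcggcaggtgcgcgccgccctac

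The CRE, searched as TGACGTCA, which reads the same on both strands, begins 65 bases before the start and was present in 578 of 35116 promoter windows (1.65%). Among the 13 promoters searched it was found in AREG alone, and the AP-1 site, present in 4.2% of all windows, in none. These matches describe letters in a window and were not related to the differences.

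HBEGF, the heparin-binding ligand, fell by 0.32 ± 0.06 (SE, n = 24), from a median of 7.25 to 6.93, and was lower at 21 of 24 time points. TGFA, another ligand, differed by -0.11 with a limma adjusted p of 0.211. EREG was at background, well above it on 2 and 1 arrays. The receptors themselves did not pass the test. EGFR, the target of both agents, ranged from 10.79 to 11.61 with EGF and gefitinib (median 10.97) and from 10.77 to 11.68 with gefitinib (median 11.03), and was lower at 16 of 24 time points. The mean difference of EGFR was -0.06 with a 95% confidence interval of -0.12 to 0.01 and a limma adjusted p of 0.288. ERBB2 and ERBB3 differed by 0.03 and 0.10, with intervals of -0.04 to 0.10 and -0.01 to 0.22. None of 13 negative regulators of the ERBB receptors, such as ERRFI1, LRIG1 and CBL, passed in either direction.

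The named falls were the largest among genes called as labelled that moved 1 way at 20 or more of 25 time points on probes above background, with those of the late window. The keratin 6 genes encode intermediate filaments of activated and stratified epithelium. KRT6B ranged from 10.06 to 12.64 with EGF and gefitinib (median 10.87) and from 10.69 to 13.01 with gefitinib (median 11.59). KRT6B was lower at 19 of 24 time points, with a mean difference of -0.56 ± 0.09 (SE, n = 24) and a limma adjusted p of 0.000352, against -0.52 and 0.00295 as labelled. KRT6A and KRT6C fell by 0.54 and 0.51. These paralogs are nearly identical in sequence, so their probes may share signal and the 3 values may not be separate measurements.

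ADAM19, a membrane metalloprotease that sheds growth factor precursors, ranged from 9.32 to 11.49 with EGF and gefitinib (median 9.80) and from 9.90 to 11.67 with gefitinib (median 10.35). ADAM19 was lower at 23 of 24 time points, and its mean difference of -0.48 ± 0.05 (SE, n = 24) had a limma adjusted p of 4.35e-06, against -0.44 and 0.000516 as labelled. SCG2, a secretory granule protein, fell by 0.48 ± 0.08 and was lower at 20 of 24. GJB2, the gap junction protein connexin 26, fell by 0.47 ± 0.06 and was lower at 23 of 24.

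MARCHF4, a membrane-bound ubiquitin ligase, was lower at 24 of 24 time points, with a mean of -0.43 ± 0.07 (SE, n = 24). HSD3B1, which acts in steroid synthesis and has a close paralog, fell by 0.46 ± 0.07 and was lower at 22 of 24. KRTAP1-5, a keratin-associated protein gene, fell by 0.39, the ADP-ribosyltransferase gene ART4 by 0.40, and SOWAHA by 0.38. These 3 genes were lower at 21, 21 and 19 of 24 time points, and SOWAHA did not pass when all probes of a gene were averaged (adjusted p 0.604, limma). The transglutaminase gene TGM5 fell by 0.48 and TREM1, a receptor that amplifies inflammatory signals, by 0.45. With the variance inflated for correlation between neighbouring times, adjusted p in limma rose to 0.0841 for KRT6B, 0.0729 for KRT6A, 0.0678 for KRT6C, 0.067 for SCG2, 0.138 for TGM5 and 0.146 for TREM1, so that these 6 genes no longer passed. SOWAHA and ART4 were lost in the same way (0.0759 and 0.0574). With normexp and without 0.5 h, KRT6B and ADAM19 were at -0.47 and -0.43, whereas dimmer genes shrank, SCG2 to -0.13, MARCHF4 to -0.11, HSD3B1 to -0.25, KRT6C to -0.26, KRTAP1-5 to -0.11, ART4 to -0.13, TGM5 to -0.085 and TREM1 to -0.13. SOWAHA did not pass in that setting either (-0.047, limma adjusted p 0.0559).

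**Figure D2:**
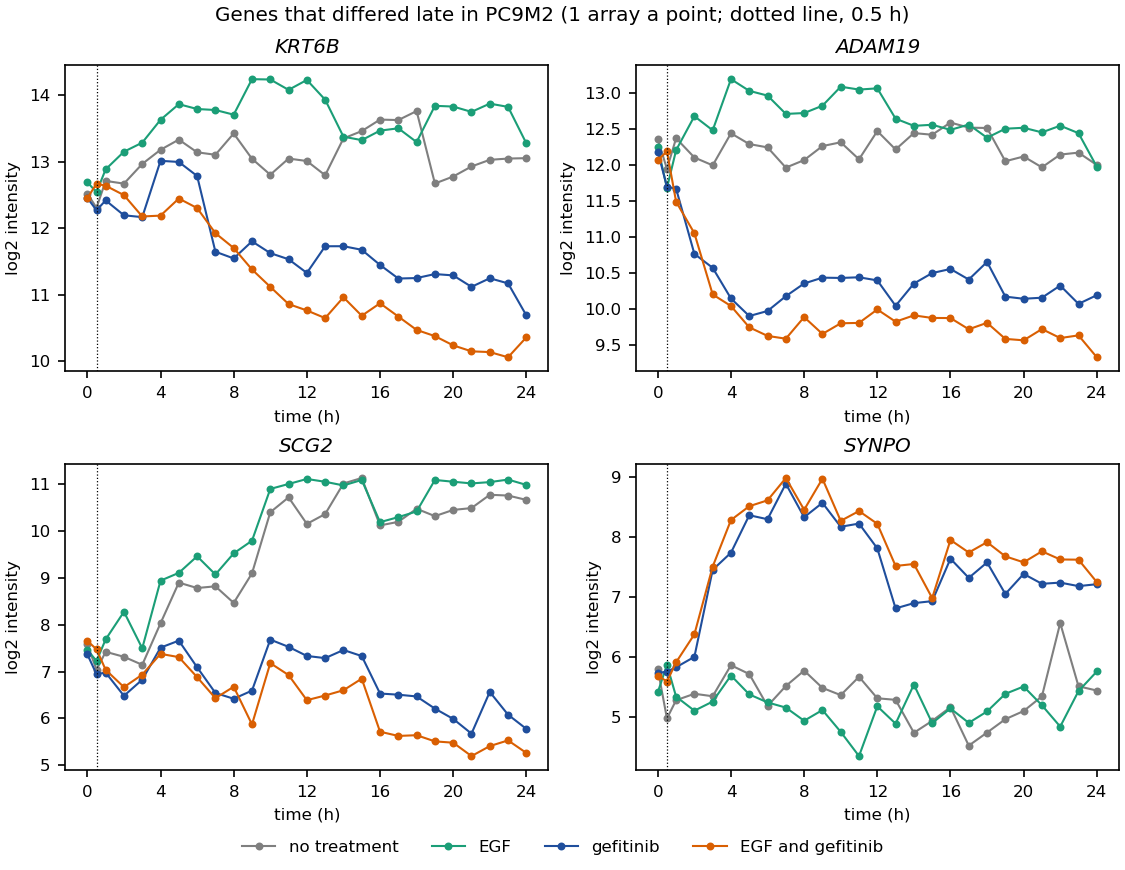
Log2 intensity (vertical axis) of KRT6B, ADAM19, SCG2 and SYNPO against time in h (horizontal axis) in PC9M2 cells of the 4 labelled treatments, 1 point an array. KRT6B, ADAM19 and SCG2 are lower with EGF and gefitinib than with gefitinib over most of 13 to 24 h, with means of -0.86, -0.60 and -0.71, whereas SYNPO is higher at 24 of 24 time points.

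The named rises were chosen in the same way, and larger mean rises on dimmer or less steady probes are not named. SOX2, which the late window adds, a transcription factor of progenitor and lung squamous cells, ranged from 4.78 to 7.69 with EGF and gefitinib (median 6.54) and from 5.33 to 7.28 with gefitinib (median 6.12). SOX2 was higher at 22 of 24 time points, with a mean of 0.45 ± 0.07 (SE, n = 24) and a limma adjusted p of 0.000365, against 0.36 and 0.067 as labelled. DAPK2, a calmodulin-dependent kinase linked to cell death, rose by 0.36 ± 0.06 and was higher at 21 of 24. PRRT2, known from synaptic vesicle release, rose by 0.31 ± 0.05 and was higher at 23 of 24.

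CFAP53, a protein of motile cilia, rose by 0.31 ± 0.06 (SE, n = 24), and TPPP3, which binds microtubules and is abundant in ciliated cells, by 0.23 ± 0.07. CLIC5, a protein of the cortical actin skeleton, rose by 0.57 ± 0.10 and the actin-severing gene SCIN by 0.37 ± 0.08, both from dim probes that were well above background on 15 of the 25 gefitinib arrays. BPIFB1, a secreted airway protein, rose by 0.40 ± 0.10. STPG4, H4C1, CCDC136 and TRIM72 rose by 0.35, 0.34, 0.30 and 0.27. H4C1 is 1 of several nearly identical histone H4 genes, so its value is uncertain, and the same holds for WASHC2A, a gene of the endosomal WASH complex with a close copy, at 0.38. LRRC36 rose by 0.36. CLIC5 and TRIM72 did not pass when all probes of a gene were averaged (limma adjusted p 0.282 and 0.0769), and H4C1, CCDC136, BPIFB1, WASHC2A and LRRC36 did not with inflated variance (0.0566, 0.123, 0.18, 0.0783 and 0.16). The rise of WASHC2A was that of 1 probe, since with the probe of highest mean it was 0.03 as labelled (limma adjusted p 0.559). With normexp and without 0.5 h the rises were smaller, 0.21 for DAPK2, 0.20 for PRRT2, 0.12 for SOX2, 0.13 for CFAP53, 0.13 for BPIFB1, 0.11 for H4C1, and under 0.1 for CLIC5 (0.079), SCIN (0.044), STPG4 (0.068), TRIM72 (0.067) and LRRC36 (0.082). CCDC136 (0.024) and WASHC2A (0.021) then did not pass.

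SYNPO, an actin-associated protein, rose by 0.32 ± 0.04 (SE, n = 24) and was higher at 24 of 24 time points on the probe used, with a limma adjusted p of 5.13e-05. SYNPO has more than 1 probe, and with the probe of highest mean the difference as labelled was -0.04 with an adjusted p of 0.829. Its rise is therefore that of 1 probe.

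Lists of wider processes were followed in the same way, 22 lists in all. Of 12 genes of the integrated stress response, in which ATF4 raises amino acid synthesis genes, 3 rose and 0 fell without 0.5 h, with a median of 0.15 against 0.01 for all genes, where 2.74% of all genes rose. ASNS, asparagine synthetase, rose by 0.28, the lipoprotein receptor gene VLDLR by 0.21 and ATF4 by 0.17, and as labelled ASNS and VLDLR passed. DDIT3, the stress factor CHOP, differed by 0.04 with an adjusted p of 0.619.

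Among 20 FOXO targets, genes that FOXO factors raise when AKT is quiet, 3 rose and 1 fell, where 2.74% of all genes rose and 3.55% fell, with a median of 0.10. BMF, a BH3-only protein that promotes apoptosis, rose by 0.28, the death ligand gene TNFSF10 by 0.22 and PIK3IP1, an inhibitor of PI3K, by 0.18, with limma adjusted p of 0.00417, 0.0118 and 0.0495. As labelled these 3 did not pass (0.422, 0.637 and 0.647). IRS1, the insulin receptor adaptor, fell by 0.25 and passed both ways. BCL2L11, which encodes BIM, differed by 0.13 with an interval of -0.06 to 0.32.

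In most other lists few members were called. Over all genes 2.74% rose and 3.55% fell, so that the single genes named here are not results about their lists. Of 24 tested genes of G1 and DNA replication, CCNE1, the cyclin of S-phase entry, fell by 0.19 and none rose. GINS2, a subunit of the replicative helicase, had a larger mean, -0.41, with a limma adjusted p of 0.55. Of 21 mitotic genes none passed in either direction. CCND1, cyclin D1, differed by -0.09 with an interval of -0.20 to 0.02. Of 24 sterol and fatty acid genes 1 fell, of 16 glycolytic and HIF targets PDK1 fell by 0.20, and of 15 genes of ribosome biogenesis 3 fell, POLR1B among them by 0.34. Of 14 targets of beta-catenin ZNRF3, a feedback ubiquitin ligase of WNT receptors, fell by 0.28 and was lower at 24 of 24 time points. The 2 passing genes of 18 interferon-stimulated genes were 1 rise, IRF9 by 0.18, and 1 fall. IL1B fell by 0.32 among 10 tested cytokines, SERPINE2 by 0.25 among 11 tested proteases and inhibitors, and 1 of 11 mesenchymal genes fell. None of 11 heat shock genes passed.

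**Figure D3:**
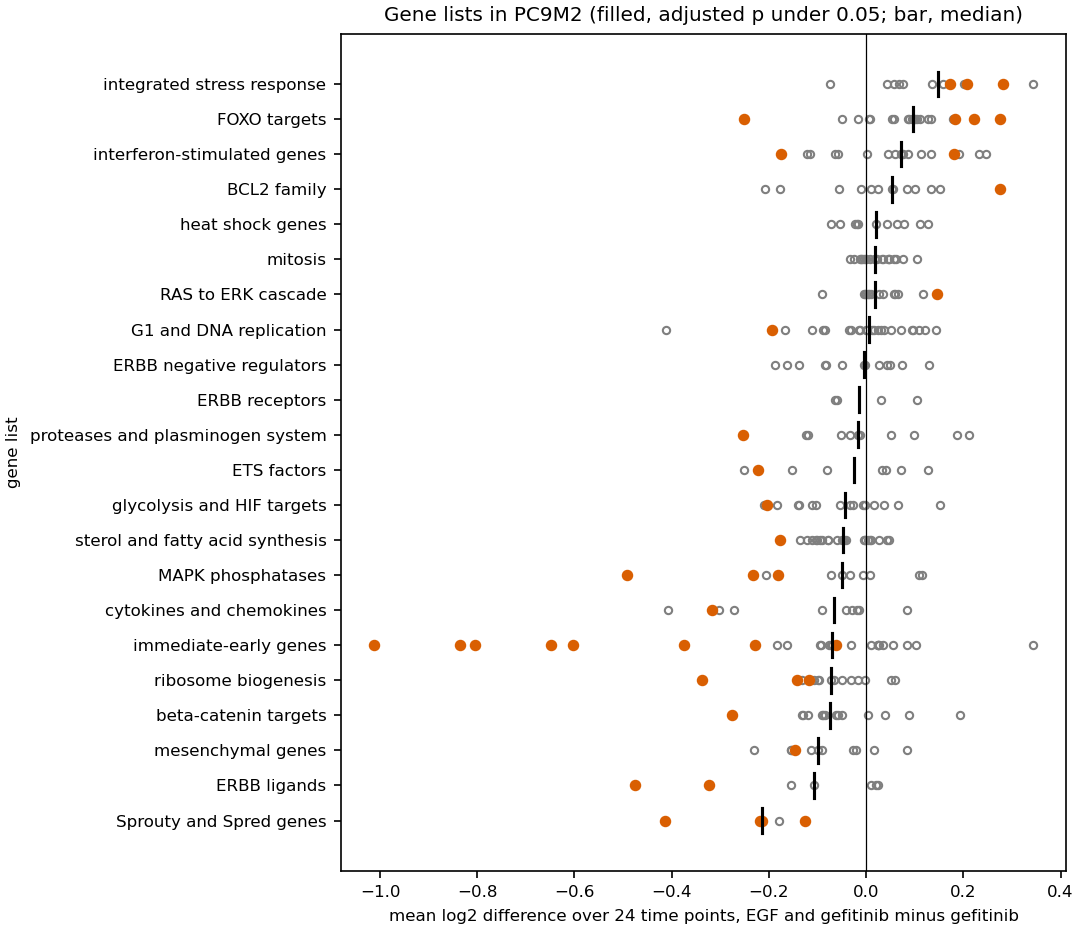
For each of the 22 gene lists (vertical axis), the log2 difference, EGF and gefitinib minus gefitinib, of its tested members in PC9M2 over 24 time points (horizontal axis), with each list's median. The Sprouty and Spred list has the lowest median, -0.21, and the integrated stress response the highest, 0.15, beside 0.01 for all tested genes.

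The difference was followed over the course in windows. From 0.5 to 4 h as labelled, 0 of 13263 genes passed (0%), with 1065 at an unadjusted p under 0.05 in limma and 0 by the paired t-test after adjustment. From 1 to 4 h, with 4 time points, EGR1 alone passed (0.00754%), at -0.90. From 5 to 12 h 6 genes passed as labelled (0.0452%) and 63 without 0.5 h (0.475%), of which 4 rose (0.0302%) and 59 fell (0.445%). From 13 to 24 h 448 genes passed as labelled (3.38%), and 590 without 0.5 h (4.45%), 292 higher (2.2%) and 298 lower (2.25%).

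The windows differ in their number of time points, so their counts do not show that the difference grew. The test of that change, 13 to 24 h against the first window, called 26 genes as labelled (0.196%) and 5 without 0.5 h (0.0377%), which were MMP7, TGM5, THRSP, TRANK1 and VTCN1. TGM5, a transglutaminase of the cornified envelope, was 0.27 higher with EGF from 1 to 4 h and 0.80 lower from 13 to 24 h on the log2 scale. MMP7, the protease matrilysin, went from -0.63 to 0.52, and VTCN1, an immune checkpoint ligand, from -0.15 to 0.43. KRT6B was at -0.07 in the first window and -0.86 in the last, but without 0.5 h the test of this change gave an adjusted p of 0.148. EGR1 was at -0.90, -0.72 and -0.89 in the 3 windows.

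The shift was also described over the genes that gefitinib itself moved in PC9. In that line, gefitinib against no treatment changed 72.3% of the tested genes, and 1133 fell (8.54%) and 1339 rose (10.1%) by 2-fold or more. These genes were chosen on other arrays, of another line. Their levels in PC9M2 were, however, part of the check of labels that led to leaving out 0.5 h. Their values without 0.5 h therefore follow in part from that choice. In PC9M2, the genes that gefitinib lowered in PC9 had a median difference of -0.06 with EGF under gefitinib, and 72.6% of them had means below 0, against 46.2% of all genes. Of these 1133 genes 216 fell (19.1%) and 7 rose, where 3.55% of all genes fell and 2.74% rose. The genes that gefitinib raised had a median of 0.05, with 23.5% of means below 0, and 141 of 1339 rose (10.5%) while 12 fell. As labelled, 108 of the 1133 fell and 62 of the 1339 rose, where 1.9% of all genes fell and 1.17% rose. Thus, over the course, the mean difference of each set lay in the direction in which gefitinib had moved it in PC9. At 0.5 h, on the arrays that went against their labels, the medians were 0.26 and -0.18, opposite in sign. From 1 to 6 h they lay near 0, and at 7 h they were -0.19 and 0.09.

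**Figure D4:**
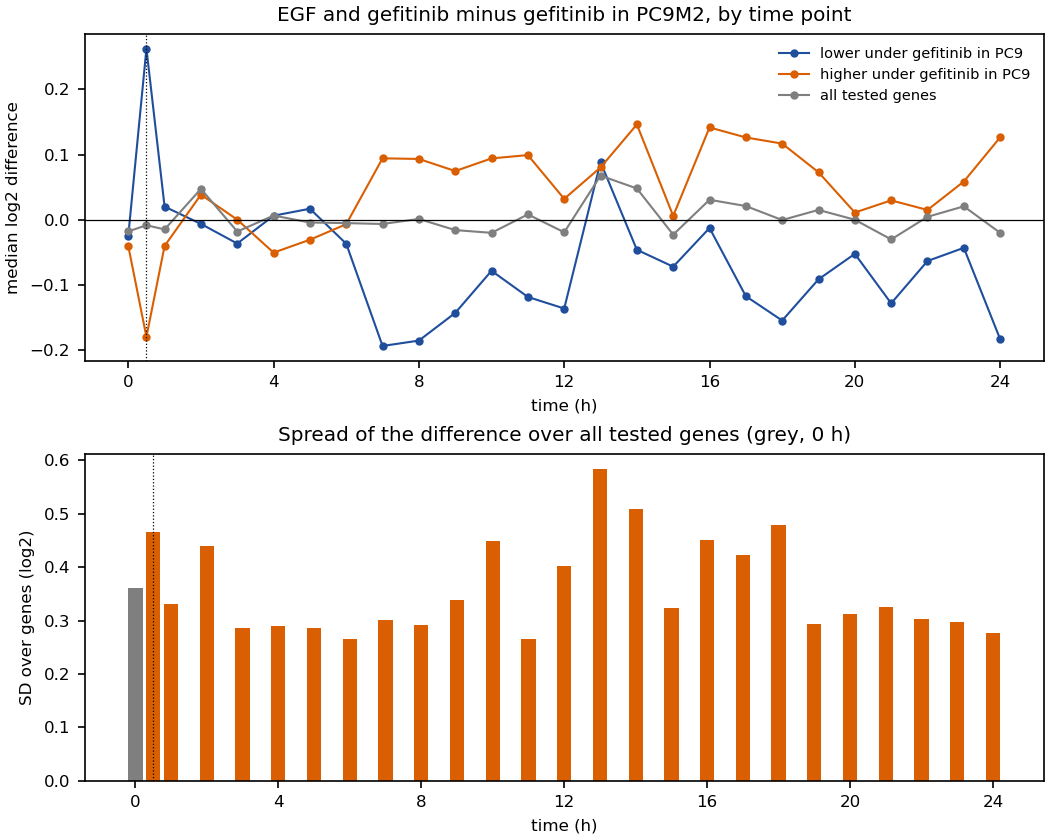
Median log2 difference over genes, EGF and gefitinib minus gefitinib, in PC9M2 (vertical axis) at each time in h (horizontal axis), for genes that gefitinib lowered or raised at least 2-fold in PC9, with the SD of the difference over all genes. The medians are 0.26 and -0.18 at 0.5 h and -0.19 and 0.09 at 7 h.

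EGF without gefitinib in the same line used other arrays. There 1359 genes passed as labelled (10.2%) and 1737 without 0.5 h (13.1%), 836 higher (6.3%) and 901 lower (6.79%). Of the genes that EGF raised on its own, 143 of 836 fell with EGF under gefitinib and 7 rose, with a median of -0.05, where 3.55% of all genes fell and 2.74% rose. Of those it lowered, 95 of 901 rose and 15 fell, with a median of 0.05. The 260 genes called in both comparisons are 31.2% of the 834 and 15.0% of the 1737, and 238 of them moved in opposite directions. On the slides EGF alone lay at position 2 and no treatment at position 1. With gefitinib the order was reversed, with EGF at position 3 and its partner at position 4. Opposite directions therefore cannot be told apart from position. Across genes the differences with and without gefitinib had r = -0.25, given as a description since genes are not independent.

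The difference between the EGF effects with and without gefitinib was tested directly. It passed for 1450 genes as labelled (10.9%) and for 2261 without 0.5 h (17%). HBEGF rose by 0.78 with EGF alone, AREG by 0.56 and DUSP6 by 0.29, and with gefitinib they fell by 0.32, 0.48 and 0.49. For AREG the difference between the effects was -1.04 ± 0.07 (SE, n = 24) with a limma adjusted p of 7.7e-10, and for DUSP6 -0.78 ± 0.05 with 3.84e-11. HSD3B1 rose by 1.00 with EGF alone and fell by 0.46 with gefitinib, and DCLK1, a kinase associated with tuft cells, rose by 1.39 with EGF alone and differed by -0.20 with gefitinib (limma adjusted p 0.068).

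In the other direction TPPP3 fell by 0.91 with EGF alone and rose by 0.23 with gefitinib. The cytokine gene LTB fell by 0.75 with EGF alone at 24 of 24 time points and the adenylate cyclase gene ADCY5 by 0.97, whereas with gefitinib they differed by 0.24 and 0.15 and did not pass (limma adjusted p 0.165 and 0.442). EGFR rose by 0.26 with EGF alone, and the difference of its effects, -0.32, had a limma adjusted p of 0.00248. EGR1 differed by -0.05 with EGF alone over the course, with a limma adjusted p of 0.82, after 1.89 at 1 h and 0.63 at 2 h. A no-treatment array at 11 h stood apart, with a correlation of 0.926 to its course, and without 0.5 and 11 h the difference of effects passed for 2813 genes.

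The same addition of EGF under gefitinib was set against that in PC9. The difference between the lines passed for 172 genes as labelled (1.3%) and for 355 without 0.5 h (2.68%), 127 more positive (0.958%) and 228 more negative (1.72%) in PC9M2. EGR1 had a mean of 0.38 in PC9 (limma adjusted p 0.383), and the difference of the lines was -1.22 with a limma adjusted p of 4.36e-05. EGR2 had a mean of 0.57 in PC9. For DUSP6, AREG and SPRY4 the PC9 means were 0.09, 0.21 and 0.37, none of which passed, and the lines differed by -0.58, -0.69 and -0.79 with limma adjusted p of 0.00149, 0.000284 and 0.000481. ADAM19 differed by -0.60 (0.000152) and SOX2 by 0.69 (2.19e-06). KRT6A differed between the lines by -0.53, with a limma adjusted p of 0.0547 that did not pass. PC9 arrays at 14, 16 and 17 h had a large spread, and without them and 0.5 h 226 genes passed. In PC9 with gefitinib EGR1 was at 4.66 at 14 h and 3.75 at 16 h, against 6.09 at 13 h and 5.99 at 15 h. The PC9 means and line differences above include those times.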

How the data were processed

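Total RNA was labelled with Cy3 and hybridised to Agilent one-colour whole-genome arrays, 1 for each line, treatment and time point. The authors deposited scanner output with the processed signal, an intensity already background-corrected by Feature Extraction 10.5.1.1 per the file headers, and a table of normalized intensities. From the deposited intensities, all 208 arrays were quantile normalized together as in the study's methods, values under 1 were set to 1, and log2 was taken. Outlier spots were then removed, and the remaining spots of a probe were averaged. Accessions were named through RefSeq, which gave a symbol for 24794 of 41000 probes. Of 16961 genes, 6040 had more than 1 probe and were represented by that of largest variance. The 13263 genes tested were those that 13 or more of the 26 arrays in any of 8 courses measured well above background, and 3698 were left out. No spot was saturated, and the number of arrays limits the precision.

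Differences at matched time points were tested with limma 3.58.1 in R 4.3.3 and Benjamini-Hochberg adjustment at 0.05. The members and lists were chosen with earlier results of these data known. Single genes are the 10 largest called rises and falls that moved 1 way at 20 or more of the 25 time points on probes above background, the corresponding genes of the windows and of the differences between effects, list members, and EGFR. The exclusion of 0.5 h, the promoter genes and the genes called only without 0.5 h were described after their values were seen. The alternatives were other scalings, background corrections, probes, filters and time points, inflated variance, scan day as a block, the study's paired t-test and unpaired courses. No column of another series was found. A marker gene of the lists is not reported here.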

Additional observations from a re-analysis of the deposited data

Results flagged for a closer look

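Over the 25 time points as labelled, and thus with the arrays at 0.5 h that went against their labels, the EGF effects of 1450 genes differed between the presence and absence of gefitinib in PC9M2 (2261 without 0.5 h), by limma with Benjamini-Hochberg adjustment. Among the named genes, the effect with gefitinib minus that without was negative on the log2 scale for ADAM19 at -0.83, ART4 at -0.61, DCLK1 at -1.54, EGFR at -0.32, GJB2 at -0.46, HSD3B1 at -1.34, KRT6A at -1.17, KRT6B at -1.07, KRT6C at -1.23, MARCHF4 at -0.86, SCG2 at -0.88 and TREM1 at -0.43. It was positive for ADCY5 at 1.06, BPIFB1 at 0.70, CCDC136 at 0.41, CFAP53 at 0.75, CLIC5 at 0.72, DAPK2 at 0.79, H4C1 at 0.44, LTB at 0.94, PRRT2 at 0.56, SOX2 at 0.57, SYNPO at 0.43 and TPPP3 at 1.06.

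The EGF effects under gefitinib of 172 genes differed between PC9M2 and PC9 in the same test (355 without 0.5 h). The effect in PC9M2 minus that in PC9 was -0.56 for ADAM19, -1.14 for EGR2, -0.46 for GJB2, -0.55 for KRT6B, -0.70 for KRTAP1-5, -0.49 for MARCHF4 and -0.69 for TREM1. It was 0.45 for CFAP53, 0.37 for PRRT2, 0.53 for SCIN, 0.64 for SOX2 and 0.49 for SYNPO.

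The difference between the courses changed from 0.5 to 4 h to 13 to 24 h for 26 genes. Late minus early, it changed by -0.62 for ADAM19, -0.73 for HSD3B1, -0.88 for KRT6B, -0.86 for SCG2, -1.07 for TGM5 and 1.04 for SOX2. Without 0.5 h the change of TGM5 was still called and that of the other 5 was not.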

How the results depend on the processing

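Treatment cannot be told apart from slide position, each course was run once, and the p-values measure spread over time points. The counts below are of genes called by limma over the 25 time points as labelled, in the order EGF under gefitinib (407), the difference with and without gefitinib (1450), the difference between the lines (172), 13 to 24 h (448) and late against early (26). With time courses unpaired, without a block for the matched time points, they were 0, 17, 0, 3 and 0, with 184 at an unadjusted p under 0.05 for the first, 112 for the lines and 188 for late against early. Requiring 2-fold left 0, 19, 4, 6 and 4. Time points 3 h apart gave 73, 388, 0 and 0 for the first 4, the 0 counts having 1372 and 1302 at an unadjusted p under 0.05. Of those 73 genes 15 were among the 407. Of the named genes called as labelled ADAM19 and KRTAP1-5 then passed, and the others, from KRT6B (adjusted p 0.0582) to CCDC136 (0.461), did not. EGR1, EGR2, FOSL1, EGR4, DUSP6 and AREG, not called as labelled, passed in this setting, with limma adjusted p of 0.019 to 0.0451. Its time points do not include 0.5 h. Variance inflated for autocorrelation gave 104, 786 and 40 for the first 3 and 16 for late against early. Without 13 and 14 h, the time points of largest spread, the first, the lines and the late window gave 222, 65 and 278. Scan day as a random block gave 921 late and 166 for late against early, which was 50 with 0 h included, 45 with a floor of 16, 56 with normexp and 52 with the probe of highest mean. Windows of 0.5 to 3 h and 16 to 24 h gave 198 late. The lines gave 69 with no filter on dim genes and 113 with 75th percentile scaling. In the early window, with 0 called, the alternatives gave 2 with the mean of all probes, 1 with normexp, 2 with the highest-mean probe, 4 with scan day and 5 with the shorter window.

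Leaving out each time point in turn gave 220 to 834 genes for EGF under gefitinib, 1233 to 2261 with against without gefitinib, 53 to 355 between the lines, 0 to 9 early, 331 to 590 late and 5 to 55 for late against early. The first count moved by more than 1.5 times without 0.5 h (834), 8 h (263), 11 h (241), 14 h (258), 17 h (243), 18 h (245), 19 h (220), 20 h (267), 21 h (266), 22 h (245) and 23 h (256). With 0.5 h already left out, leaving out another gave 596 (19 h) to 1184 (10 h).

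Without 0.5 h and with a further change, in alternatives chosen after seeing the data, EGF under gefitinib gave 819 with percentile scaling, 1094 with normexp, 921 with all probes averaged, 423 with inflated variance and 0 with unpaired courses. The other counts were 2363, 2562, 2449, 1527 and 56 with against without gefitinib, and 2813 without 11 h as well. Those between the lines were 319, 482, 391, 131 and 0, those of the late window 576, 809, 672, 455 and 10, and those of late against early 5, 13, 6, 3 and 0. The early window then gave 4, 0, 2, 1 and 0. Without 0.5 and 11 h EGF under gefitinib gave 660, and without 0.5, 14, 16 and 17 h 588, with 226 between the lines.

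SYNPO reversed, to -0.019 with normexp as labelled, -0.023 with normexp without 0.5 h, and -0.035 with the probe of highest mean. The cause of these changes was not tested.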
